A study of Arabidopsis thaliana with 8 samples.

Results

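The genes nad3 and rps12 lie next to each other on the mitochondrial genome of Arabidopsis thaliana, and both were taken by name: their 2 rows of the 33 genes with ribosome footprint values, and the 19 of 434 listed RNA editing sites that carry their names (11 in nad3 and 8 in rps12). Footprints are pieces of mRNA shielded from nuclease by a translating ribosome. They were measured by Ribo-seq in flowers of greenhouse plants in the Col-0 background, with 2 libraries, A and B, for each of 3 genotypes: wild type, mtl1 and mtsf1. Per the labels, each mutant is affected in a pentatricopeptide repeat (PPR) protein, tied to nad7 mRNA translation in mtl1 and to nad4 mRNA stability in mtsf1; the sources used here give no allele. The Ribo-seq samples are labelled as mitochondria. Editing was read from 2 RNA-seq libraries of wild-type flowers, labelled as whole cells. No mutant RNA-seq was analysed here, and a change in footprints cannot be told apart from a change in mRNA level. Only mitochondrial genes were in the footprint table, so no marker of flower tissue could be checked.

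nad3 encodes a membrane subunit of respiratory complex I, the enzyme that takes electrons from NADH and pumps protons. rps12 encodes a protein of the small subunit of the mitochondrial ribosome, part of the decoding centre. In many flowering plants both genes are transcribed together, and plant mitochondrial transcripts are edited after transcription, when selected C residues are turned into U by a machinery that PPR proteins guide. Most such edits in coding regions change the encoded amino acid.

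On the TAIR10.1 assembly, which is not known to be the authors' build, nad3 is a single coding exon of 357 bases at MT:288044-288400 and rps12 one of 378 bases at MT:288446-288823, both on the plus strand. A stretch of 45 bases separates them, of which 39 are purines (23 A and 16 G). The annotation gives a 5′ UTR of 232 bases before nad3 and a 3′ UTR of 15 bases after rps12, with no UTR between the 2 genes. The genomic ends that face each other are shown because the last edits of nad3 fall there, with the edited positions in capitals.
nad3, last 30 coding bases, MT:288371-288400: tggaaaaggggtgcttCggatCgggagtaa
rps12, first 30 coding bases, MT:288446-288475: atgcccacgtttaatcaattgattcgtcat
The nad3 end holds 2 listed sites and the rps12 start holds none.

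All 19 listed sites lay in coding sequence, and 16 of them alter the amino acid. In nad3, 10 of 11 do so and the other is synonymous, while in rps12 the split is 6 and 2. The site sequences below come from the deposited site table, 26 bases each in edited form, with the edited base, the 21st, as a capital T. They show a proline codon that is edited at its first and second bases, the last edit of nad3, the synonymous nad3 site, the rps12 site with the lowest level, and a neighbouring pair in rps12.
nad3 coding base 61, synonymous: gtctgctagtttctttgatcTtactc
nad3 coding base 208, P70F together with base 209: tttcaattttatttttaatcTttgat
nad3 coding base 209: ttcaattttatttttaatctTtgatc
nad3 coding base 349, R117W: ggaaaaggggtgctttggatTgggag
rps12 coding base 84, synonymous: cgagctttggataaatgtccTcagaa
rps12 coding base 284, S95F: agatttgccaggtgtaaaatTtcatt
rps12 coding base 285, synonymous: gatttgccaggtgtaaaattTcattg
Residues are counted from 1 at the annotated start codon, with the encoded residue first and the residue after editing last. The remaining nad3 changes were S2L, S8F, P27L, S49F, P83S, P84L and S115L, and the remaining rps12 changes were P35L, P49L, H66Y, S74L and S90L. Apart from P83S, R117W and H66Y, all replace serine or proline with leucine or phenylalanine, residues with large hydrophobic side chains. The base before the site was a pyrimidine at 18 of 19 sites, with T and C at 9 each, and an A at the P83S site of nad3. No share over all 434 listed sites is set beside this count, so it is not shown to be particular to these genes. The edited base was the first of its codon at 5 sites, the second at 12 and the third at 2, and both third-position sites are in rps12. The annotation marks 1 further site in nad3 and 4 in rps12, each noted as minor, which were not analysed here.

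Part of this region is repeated. The annotated direct repeat X-1, MT:288315-288518, covers the last 86 bases of nad3, the stretch between the genes and the first 73 bases of rps12. An unbroken stretch of 175 bases within it, MT:288334-288508, is identical to MT:306990-307164, where no gene is annotated, and takes in 18.8% of nad3 and 16.7% of rps12. The whole 780 bases from the start of nad3 to the end of rps12 are also present without a mismatch on nuclear chromosome 2 of the same assembly. The sources used here do not say how the authors assigned reads that match several places, so footprint and read values of both genes are uncertain to that extent, and the part of these copies in any result was not tested.

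Across the Ribo-seq table, totals ranged from 216316 to 290301, and the 2 libraries of a genotype correlated across genes with r from 0.988 to 0.993 (log2 scale, 33 genes, which are not independent replicates). The targeted genes were low in the mutants labelled for them: nad7 read 460 and 394 normalized footprint counts in mtl1 A and B against 8132 and 6785 in Col-0, and nad4 read 216 and 207 in mtsf1 against 13818 and 11147. Whether A and B are separate plants is not in the labels; p-values then reflect no more than library-to-library spread, which may be technical.

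rps12 footprints rose about 2-fold in both mutants, while no change of nad3 passed the test in either. Both comparisons use the same Col-0 libraries, so the rise in one mutant is not an independent repeat of that in the other. In Col-0 A and B, rps12 had 845 and 684 normalized footprint counts (mean 764.5 ± 114, SD, n = 2). In mtl1 it had 1923 and 1357 (1640 ± 400, n = 2). In mtsf1 it had 1365 and 1696 (1530.5 ± 234, n = 2). The lowest mutant library, mtl1 B, stood above the highest Col-0 library, and the mutants overlapped each other. In mtl1, rps12 was 2.12-fold higher than in Col-0 (95% interval 1.54 to 2.93), a log2 fold change of 1.09 ± 0.23 (SE), with an adjusted p of 8.53e-05 by limma over 33 genes. In mtsf1 it was 2.00-fold higher (1.45 to 2.76), a log2 fold change of 1.0 ± 0.23 (SE), with an adjusted p of 0.000158 by limma.

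Many genes moved in these comparisons. In mtl1, 11 of 33 genes (33.3%) passed the test against Col-0, 5 of them higher (15.2%), and in 30.3% of genes both mtl1 libraries stood above both of Col-0. In mtsf1, 16 genes passed (48.5%), 9 of them higher (27.3%), and in 36.4% both mutant libraries stood above both of Col-0. Among all 33 genes, the rps12 change ranked 1 from the highest in mtl1 and 5 in mtsf1. Other genes also had all 4 mutant libraries above both of Col-0, among them ccmFN1, ccmC, rpl5, rps4 and rps7. limma estimated 1 variance for all genes; with the variance of each gene alone, which leaves 3 degrees of freedom, the rps12 log2 fold changes were the same and neither passed (adjusted p by limma's linear model without moderation 0.136 in mtl1 and 0.0901 in mtsf1).

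For nad3, Col-0 A and B had 3856 and 4934 normalized footprint counts (4395 ± 762, SD, n = 2), mtl1 had 5415 and 4698 (5056.5 ± 507, n = 2), and mtsf1 had 3625 and 5379 (4502 ± 1240, n = 2). The 3 genotypes overlapped, and the lowest and the next-to-highest single values were both from mtsf1. The log2 fold change was 0.21 in mtl1 (95% interval -0.25 to 0.67, adjusted p = 0.439 by limma) and 0.02 in mtsf1 (-0.45 to 0.48, adjusted p = 0.940 by limma). These intervals include changes of up to 1.59-fold and 1.40-fold upwards, and a p above the threshold does not show that nad3 was the same. The sign in mtsf1 turned when a single library was left out, to -0.16 without Col-0 A and -0.27 without mtsf1 B.

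The median log2 fold change of all 33 genes was -0.13 in mtl1 and 0.03 in mtsf1, and scaling the libraries to equal totals moved it to -0.03 and 0.36. Relative to the median, rps12 stood at 1.21 in mtl1 and 0.97 in mtsf1, and nad3 at 0.34 and -0.01. Scaling shifts a gene and the median alike, so these distances are fixed under either scaling and say nothing of stability. With equal totals the calls in mtsf1 were split 14 higher and 7 lower, in place of 9 and 7 as deposited.

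Between the mutants neither gene passed. The log2 difference mtl1 against mtsf1 was 0.09 for rps12 (95% interval -0.38 to 0.55, adjusted p = 0.759 by limma) and 0.19 for nad3 (-0.27 to 0.66, adjusted p = 0.538 by limma), where 8 of 33 genes passed (24.2%). With equal totals they read -0.16 and -0.05, because that scaling moves all genes together and their median from -0.10 to -0.34. Relative to the median rps12 stood at 0.19 and nad3 at 0.29, at ranks 14 and 12 of 33 from the highest. For rps12 the order of mean levels was Col-0, mtsf1, mtl1, and only the step from Col-0 to the mutants was larger than the spread between libraries.

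**Figure D1:**
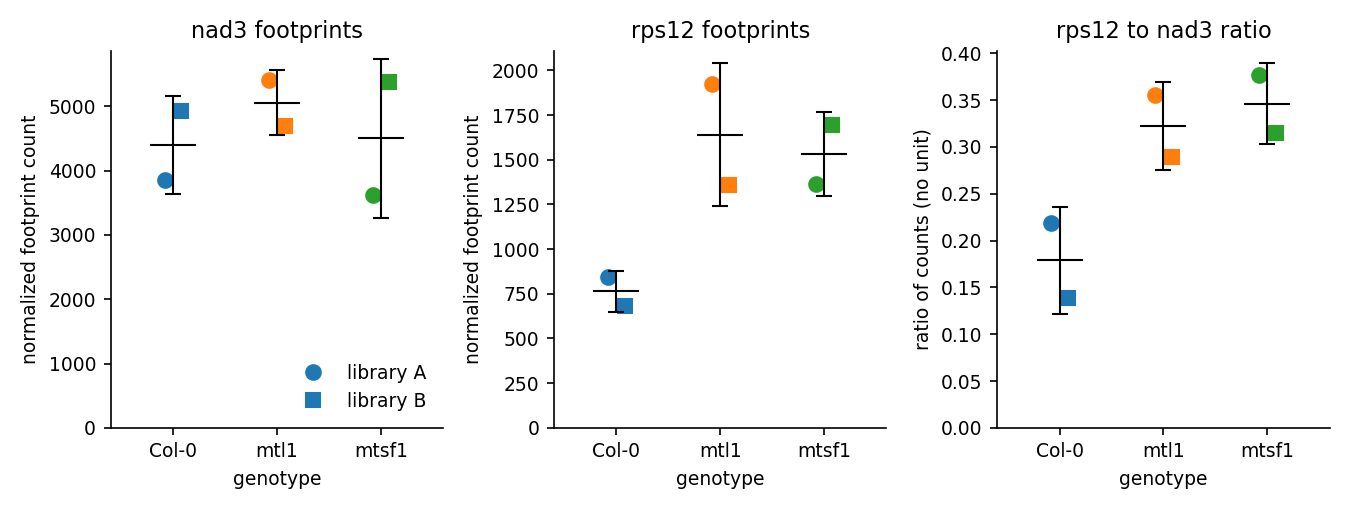
Normalized footprint counts of nad3 (left) and rps12 (middle) and the rps12 to nad3 ratio of counts (right, no unit) in each Ribo-seq library by genotype; circles are library A, squares library B, and bars the mean with 1 SD of 2 libraries. The rps12 values and ratios of all 4 mutant libraries lie above both Col-0 libraries, while nad3 values overlap.

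The ratio of rps12 to nad3 within a library removes the scaling between libraries. Libraries A and B had ratios of 0.219 and 0.139 for Col-0, 0.355 and 0.289 for mtl1, and 0.377 and 0.315 for mtsf1. All 4 mutant values exceeded both Col-0 values, with no overlap between Col-0 and either mutant and an overlap between the mutants. The ratios of ccmFN1 and rpl5 to nad3 likewise had all 4 mutant values above both of Col-0. The mutants share the Col-0 libraries they are compared with. Of the 32 ratios to nad3, 4 (12.5%) had both mtl1 libraries above both of Col-0 and 8 (25.0%) had both mtsf1 libraries above them, rps12 included. Mean ratios were 0.179 ± 0.0569 for Col-0, 0.322 ± 0.0469 for mtl1 and 0.346 ± 0.0433 for mtsf1 (SD, n = 2 each).

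On the log2 scale the ratio was higher by 0.88 in mtl1 (95% interval 0.02 to 1.74) and by 0.98 in mtsf1 (0.12 to 1.84), with an SE of 0.43 for both. limma on the ratios of the 32 other genes to nad3 gave an unadjusted p of 0.0459 in mtl1 and 0.0257 in mtsf1, and adjusted p-values of 0.245 and 0.0655, so neither passed. In those fits, 3 of 32 ratios (9.38%) passed in mtl1, 7 (21.9%) in mtsf1 and 6 (18.8%) between the mutants, and all 32 share the nad3 values. With only genes of a mean of at least 1000, the mtsf1 ratio passed (adjusted p = 0.0476 by limma), and over the 16 alternatives its adjusted p ranged from 0.0476 to 0.494. An exact two-sided permutation test of the log2 ratio gave p = 0.333 for each mutant against Col-0, the smallest that 2 against 2 libraries allow. The rise of rps12 therefore passed the test, while its difference from nad3 did not.

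Among other measured genes that follow each other on a strand with at most 1000 bases between them, the same measure, the downstream gene's log2 fold change less that of the upstream gene, was computed for comparison. There were 6 such pairs with nad3 and rps12 included, which differed by 0.88 in mtl1 and 0.98 in mtsf1. It was the only pair above 0 in both mutants. The pair rps3 and rpl16, whose coding regions overlap by 134 bases, differed by -0.51 in mtl1 and 0.44 in mtsf1. nad4L and atp4 differed by -0.04 and -0.50, and rpl2 and mttB by -0.88 and -1.58. rps4 and nad2 differed by -0.27 in mtl1 and -1.83 in mtsf1, and rpl16 and nad9 by -0.31 and -2.41. Differences between pairs were not tested, and both mutants were set against the same Col-0 libraries.

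Compared per length, Col-0 had 10801 and 13821 normalized footprint counts per kilobase of nad3 coding sequence in libraries A and B, and 2235 and 1810 per kilobase of rps12. The rps12 level was thus 0.169 ± 0.0538 of that of nad3 (SD, n = 2). It was 0.304 ± 0.0443 in mtl1 and 0.327 ± 0.0409 in mtsf1. Among 31 genes with 1 annotated coding length, nad3 ranked between 7 and 10 from the highest level per kilobase over the 6 libraries and rps12 between 16 and 18. nad3 held 1.33% to 2.49% of the table's total in a library, and rps12 held 0.253% to 0.784%.

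The Col-0 RNA-seq libraries gave a similar order for reads at the editing sites. The median number of reads per site was 135 for nad3 and 16.5 for rps12 in library A, and 155 and 35 in library B, a ratio of 0.122 and 0.226 (mean 0.174 ± 0.0732, SD, n = 2). This count of reads at 11 and 8 single positions stands beside the footprint ratio only as a description, since it comes from other libraries.

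nad3 and rps12 were next set beside the other measured genes of complex I and of the ribosome. Of 9 complex I genes, none was higher and 2 were lower in mtl1, nad7 (log2 fold change -4.12), the target, and nad9 (-1.16), with a median of -0.26. In mtsf1 none was higher and 3 were lower, nad4 (-5.87), the target, nad2 (-1.62) and nad9 (-0.98), with a median of -0.24, which is 0.27 below the median of all genes; with equal totals the 2 medians shift together, to 0.10 and 0.36. Of 7 ribosomal protein genes, rps12 and rpl5 (0.86) were higher and rpl16 (-0.85) lower in mtl1, with a median of 0.34. In mtsf1, 6 were higher, all but rps4 (0.21, adjusted p = 0.461 by limma), and rps12 was in the middle of the list, below rpl16 (1.43), rpl5 (1.20) and rpl2 (1.07) and above rps3 (0.99) and rps7 (0.64), at the list's median of 1.0. With equal totals 3 were higher and 1 lower in mtl1 and all 7 were higher in mtsf1. That scaling shifts all 33 genes, to 6 higher and 5 lower in mtl1 and 14 higher and 7 lower in mtsf1. Their median was then -0.03 in mtl1 and 0.36 in mtsf1. Over all 33 genes as deposited, 5 were higher and 6 lower in mtl1, with a median of -0.13, and 9 were higher and 7 lower in mtsf1, with a median of 0.03. The lists were described without a test of their own.

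**Figure D2:**
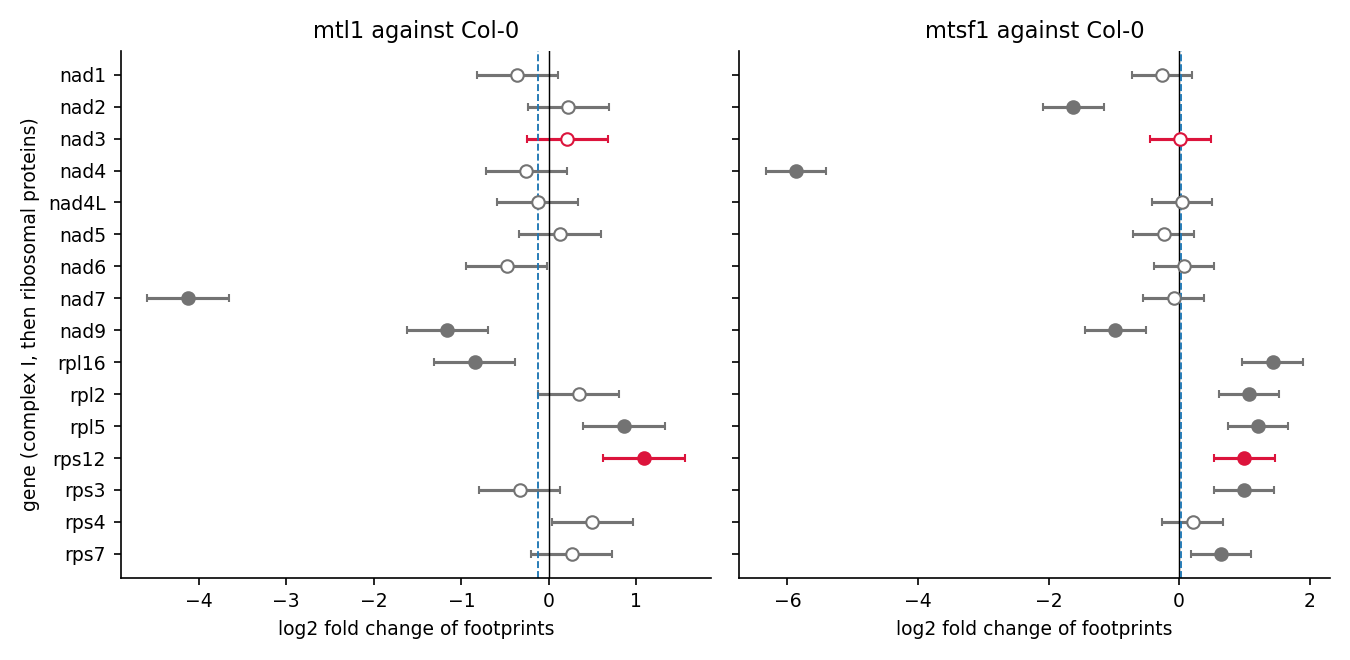
Log2 fold change of footprints with 95% intervals for 9 complex I genes and 7 ribosomal protein genes in mtl1 (left) and mtsf1 (right) against Col-0; filled points passed at an adjusted p of 0.05 by limma, nad3 and rps12 are in red, and the dashed line is the median of all 33 genes. rps12 lies at 1.09 and 1.0 and nad3 at 0.21 and 0.02.

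The pattern of each gene over the 6 libraries, as log2 values centred on their mean, was compared with those of 30 other genes by the root mean square difference. Both atp6 copies were left out of that comparison. The genes most like nad3 were atp1 (0.17), rps4 (0.23) and nad5 (0.26), which encode a subunit of ATP synthase, a ribosomal protein and a complex I subunit. Those most like rps12 were ccmFN1 (0.26), rpl5 (0.30) and ccmC (0.30), of which ccmFN1 and ccmC act in cytochrome c maturation. The difference between nad3 and rps12 was 0.49, which placed rps12 at rank 17 of 30 for nad3 and nad3 at rank 10 for rps12.

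Editing of both transcripts was close to complete in Col-0. Levels were computed as T reads over T plus C reads, and a site was used where both libraries had 20 or more such reads, which kept 11 of 11 sites in nad3 and 4 of 8 in rps12, of 226 kept in all. The mean level was 99.4% in library A and 99.9% in library B for nad3 (99.65% ± 0.409, SD, n = 2), and 99.0% and 98.9% for rps12 (98.99% ± 0.0740, n = 2). Only 7 of 1780 reads at nad3 sites were unedited in library A (0.393%, Wilson 95% interval 0.191% to 0.810%) and 3 of 5852 in library B (0.0513%, 0.0174% to 0.151%). For all 8 rps12 sites it was 1 of 138 reads in A (0.725%, 0.128% to 3.99%) and 2 of 286 in B (0.699%, 0.192% to 2.51%). Intervals cover counting error only, since a read can span several sites and reads are not independent molecules.

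In nad3, 6 of 11 sites in library A and 9 of 11 in library B had no unedited read. The lowest nad3 level was 97.5% at the P27L site in library A (2 C reads of 80, interval 91.3% to 99.3%), which read 100% in library B (155 reads). The most deeply read position, P83S, had 0 C reads of 423 in A and 1 of 2192 in B. Its neighbour P84L had none among 402 and 2039 reads, which in library B allows an unedited share of up to 0.147%. Both sites of the P70F codon had none in either library, among 135 and 371 reads at base 208 and 139 and 382 at base 209. The synonymous site at base 61 had unedited reads in both libraries, 1 of 131 and 2 of 320, a level of 99.2% and 99.4%. The R117W site had 2 C reads of 146 in A and none of 46 in B.

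In rps12, the unedited reads were all at synonymous sites: base 84, with 1 of 26 in A and 1 of 81 in B (96.2% and 98.8%), and base 285, with 0 of 20 in A and 1 of 33 in B. The adjacent S95F site at base 284 had none among 23 and 37 reads, and S90L none among 40 and 60. The 4 sites with too few reads, P35L (12 and 50 reads in A and B, 1 of them neither C nor T), P49L (1 and 8), H66Y (7 and 13) and S74L (9 and 5), showed no unedited read either. At P49L, for example, the interval in library A reaches down to 20.7%, so incomplete editing was not detectable at this depth. No member site differed between libraries A and B by Fisher's exact test (adjusted p of 1 at all 15 kept sites), where 1 of 226 kept sites (0.442%), in another gene, passed. Sites with no unedited read in either library could not differ in this test, and the other sites had few such reads. It therefore says little of how well the libraries agree. Pooled over all nad3 sites, the unedited share was 0.393% in A and 0.0513% in B, with intervals that did not overlap. That difference was not tested.

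The files list for each site a reference editing level with a spread, identical in both libraries, of unstated origin. For nad3 it ran from 74% (base 61) to 88% (P83S) with a mean of 82.1%, and for rps12 from 79% (base 285) to 91% (H66Y) with a mean of 85.2%. The level measured here was above it at all 15 kept sites, by 12.0 to 25.3 percentage points in nad3 and 12.5 to 19.5 in rps12. At 14 of the 15 the difference exceeded 2 of the listed spreads; the exception was P84L, whose listed spread is 15 points. Among the other 211 kept sites, 103 (48.8%) were above their reference level, with a median difference of 0 points, against a median of 16.8 points for the 15 sites. The median reference level was 99.0% at those 211 sites and 83.0% at the 15, which leaves many other sites little room above it. Median measured levels were close, 99.93% at the 211 sites and 99.98% at the 15. By measured mean, nad3 ranked 3 from the highest of 20 genes with at least 3 kept sites. Its reference mean ranked 13 from the lowest of 29 genes with at least 3 listed sites. rps12 ranked 8 by measured mean and 19 by reference mean. The measured means at ranks 1 to 8 lay close together, from 99.96% down to 98.99%. Other genes also stood well above the reference. Among them were rpl5 and rps4, with median differences of 18.0 and 19.0 points over 7 and 4 kept sites, and ccmC, with 8.97 points over 3. These differences were not tested.

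**Figure D3:**
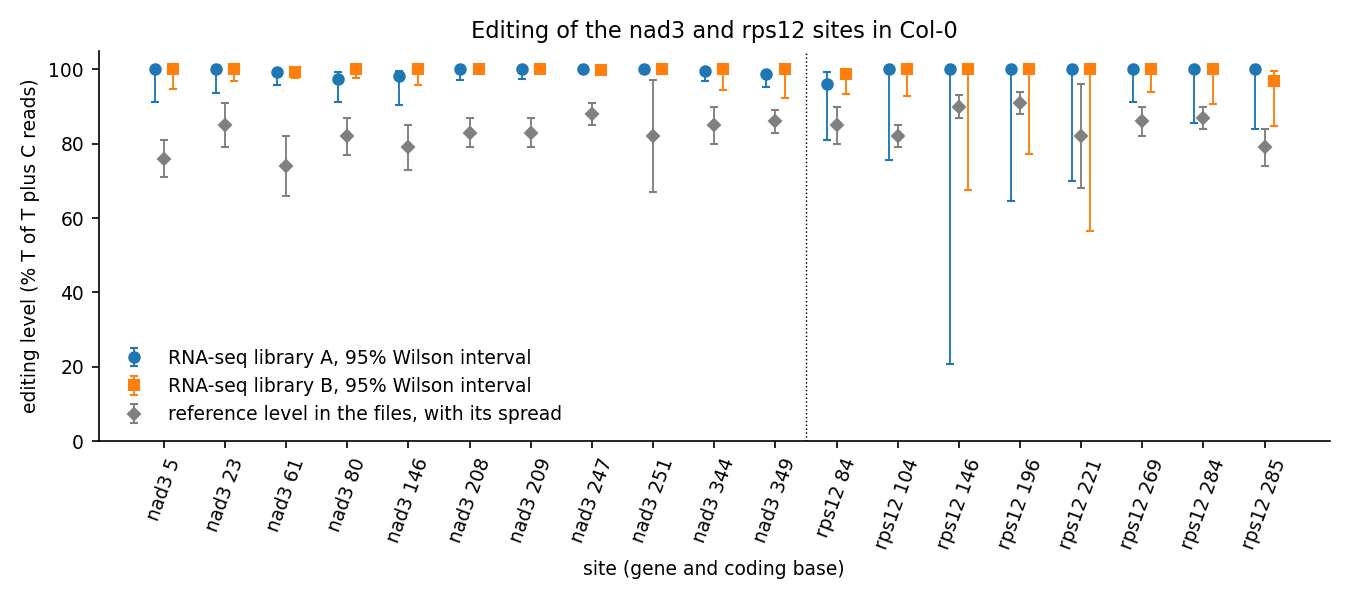
Editing level (percent T of T plus C reads) at the 11 nad3 and 8 rps12 sites, labelled by coding base, in RNA-seq libraries A (circles) and B (squares) with 95% Wilson intervals, and the reference level of the files (diamonds) with its listed spread. Measured levels lie between 96.2% and 100%, above every reference level, and the widest intervals are at rps12 sites with few reads.

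The reads behind these levels were spread unevenly along the 2 genes. In nad3 they ran from 40 at S2L to 423 at P83S in library A, and from 46 at R117W to 2192 at P83S in library B. In library A the 2 sites inside the repeat, S115L and R117W, had 173 and 147 reads, above the median of 131 of the 9 nad3 sites outside it. In library B they had 67 and 46, below all 9 sites outside, whose lowest was 69 and median 320. Read counts in rps12 were 1 to 40 in A and 5 to 81 in B, lowest in the middle of the gene: 1 and 8 at P49L, against 40 and 60 at S90L. Library B held more reads at all sites of the series, 100704 against 46892, but fewer than A at S115L, R117W and the S74L site of rps12. Without the sites in the repeat, the rps12 to nad3 ratio of median reads was 0.118 in place of 0.174, an alternative chosen after the data were seen. The part of the repeat and of the nuclear copy in these read numbers was not tested.

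**Figure D4:**
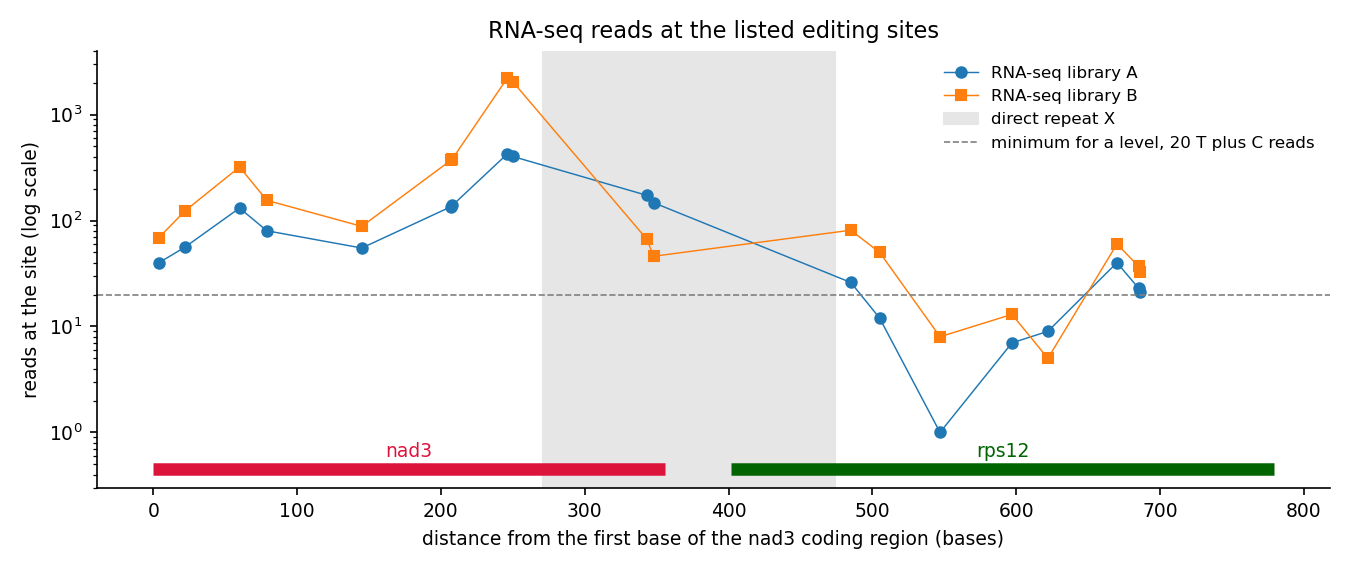
RNA-seq reads (log scale) at each editing site of nad3 and rps12 against its distance in bases from the first coding base of nad3, for libraries A (circles) and B (squares); bars at the bottom mark the coding regions, the grey band the direct repeat X and the dashed line the minimum of 20 reads. Counts peak at P83S, with 423 and 2192 reads, and are lowest within rps12, at 1 and 5.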

How the data were processed

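Per the submitters' processing notes, the tools were FastQC, cutadapt 1.9.1, Bowtie 1.1.2 and, for footprints, featureCounts 1.5.0-p2. Build, normalization, strand and handling of multiple matches: not given in the sources used here. Footprint values are a score deposited by the authors, normalized counts in rounded form, and their depth is unknown. The deposited editing tables hold the authors' counts of reads with each base and an editing fraction per site, per the file headers.

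The 6 footprint libraries entered a single limma 3.58.1 fit (R 4.3.3) of log2(value + 1), with Benjamini-Hochberg adjustment over the 33 genes and a threshold of 0.05. All genes had values above 0 in at least 2 libraries. limma estimated an infinite prior, so that each test had 99 rather than 3 degrees of freedom and all genes share a standard error. Ratios to nad3 were fitted likewise over 32 genes and tested by exact permutation. Editing levels were computed from counts in Python 3.11.15 with scipy 1.17.1, with Fisher's exact test adjusted over 226 sites. Site sequences were matched to TAIR10.1. limma and Fisher's exact test were also run on simulated data, with the same spread for every gene and with large shifts of editing level. Unequal spreads between genes and small shifts near complete editing were not simulated. The members, the gene lists (complex I and ribosomal proteins) and the naming rule (both genes, all their sites, the targets, the 3 genes most like each, members of the lists and neighbouring pairs) were chosen with earlier results of these data known. Alternatives were other pseudocounts, scalings, filters, variance models, coverage minimums, a replicate block and leaving out each library.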

Additional observations from a re-analysis of the deposited data

How the results depend on the processing

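For rps12 the log2 fold change stayed above 0 under all 16 alternatives in both mutants, from 0.84 to 1.34 in each. Filters, variance models, the replicate block, fitting the compared genotypes alone and leaving out a library of the other mutant cannot move it. Only pseudocounts, scalings and leaving out a compared library can change its size or sign. The rps12 change lost its call only with each gene's own variance (1.09, adjusted p = 0.136, and 1.0, adjusted p = 0.0901, by limma's model without moderation), where the genes called fell to 1 in mtl1 and 4 in mtsf1, in place of 11 and 16. With a library left out the rps12 change was 0.84 to 1.34 in mtl1 and 0.84 to 1.16 in mtsf1, and nad3 was 0.03 to 0.39 and -0.27 to 0.30, with -0.16 without Col-0 A. The ratio was then 0.55 to 1.21 and 0.65 to 1.31, and passed in mtsf1 (0.98, adjusted p = 0.0476) only with genes of a mean of at least 1000. Called genes with a library left out ranged from 8 to 10, 15 to 17 and, between the mutants, 6 to 10.

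Between the mutants, scaling to equal totals shifted all genes together, their median from -0.10 to -0.34, which put rps12 at -0.16 and nad3 at -0.050, with 13 genes called in place of 8. Without nad4 and nad7 in the totals they were at -0.14 and -0.037, with the median at -0.33. Their ranks among all genes were the same. With a library left out, rps12 ranged from -0.16 to 0.34, nad3 from -0.093 to 0.48 and the ratio from -0.25 to 0.043; the cause of these turns was not tested.

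Mean rps12 editing was 99.5% with a coverage minimum of 1 and 99.0% to 99.1% with a library left out, beside 98.99%; no rps12 site had 50 reads in both libraries, so no rps12 mean or read ratio could be had at minimums of 50 and 100. The listed sites are all coding, so restricting to them changed nothing. The RNA-seq read ratio was 0.247 for sites of at least 20 reads, chosen after the data were seen.

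The groups share library letters, but the labels do not say that a letter marks a shared batch, and deviations of same-lettered libraries correlated at 0.07, 0.00394 and -0.14. With the letter as a replicate block, rps12 passed in both mutants (1.09, adjusted p = 0.000137, and 1.0, adjusted p = 0.000225, by limma), and 10, 16 and 8 genes were called. Depth limits rps12 editing at 4 of its sites, and the number of libraries limits all tests.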
